A study of Danio rerio with 2 samples.

Results

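Protein tyrosine phosphatases were examined in RNA sequencing of cells sorted from zebrafish embryos. A gene was taken as a member when the protein match of any of its transcripts contained "tyrosine-protein phosphatase", "protein tyrosine phosphatase", "protein-tyrosine phosphatase" or "Ptp1b", in any case. This gave 57 of the 22017 genes with a read in either library, with 71 transcripts among them. By name, 34 were receptor types, 16 were non-receptor types, 3 were type IVA phosphatases and 4 had other names. The gene symbol of 4 of the 57 (MYOM2, radil2a, FRMPD2 and HACD2) names a protein that is not a tyrosine phosphatase. Their protein match contains a phosphatase name all the same, and these are described apart. Symbols are spelled as in the table of gene IDs, which gave one to 39 of the 57. The other 18 are called by their protein match, with the chromosome of Zv9, the zebrafish assembly of the files, or a record number where several gene records carry the same name.

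The embryos were Tg(fli1a:EGFP)y1, a line in which the fli1a promoter drives EGFP, and the sample labels give their stage as 22 to 24 hpf (hours post fertilization). GFP+ cells, labelled endothelial, and GFP- cells, labelled non-endothelial, were separated by fluorescence-activated cell sorting (FACS) from these embryos. Both groups carry the same transgene and no treatment is given for either. Each group is 1 library, so no difference below has a replicate check, and every interval and test covers counting error between these libraries only. The sources used here do not give the number of embryos that were pooled.

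Protein tyrosine phosphatases remove phosphate from tyrosine residues and so oppose, or in some cases release, signals from tyrosine kinases. Receptor types span the plasma membrane and carry adhesion-like domains outside the cell, whereas non-receptor types lie in the cytosol or on internal membranes, where SH2, FERM, PDZ or lipid-binding domains place them near their substrates. In endothelium the best known are VE-PTP and PTP1B. VE-PTP acts on the Tie2 receptor, on VE-cadherin and on VEGFR2. PTP1B removes phosphate from receptors such as the insulin receptor and VEGFR2. The study was concerned with Sec14l3 in VEGFR2 signaling, and proposed that Sec14l3 protects VEGFR2 from dephosphorylation by PTP1B. It could not exclude that other phosphatases take part, and named CD148 and VE-PTP among them.

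The GFP+ library held 4.44 M uniquely mapped reads and the GFP- library 4.11 M. Taking 3 reads as the floor, this sets a limit of 0.675 RPM and 0.731 RPM, where RPM is reads scaled to the library total. Of 15 written endothelial marker genes, 12 were matched and all 9 with enough reads were higher in GFP+ cells, where their summed level was 2106 RPM against 74.0 RPM, although cdh5 and tek had no read in GFP- cells and only 5 and 7 in GFP+ cells. The red blood cell list was also higher in GFP+ cells, with all 6 matched genes (31128 against 280 RPM), as were 3 of 5 genes of the leukocyte list (190 against 26.3 RPM). All 3 muscle genes tested (557 against 2038 RPM), 5 of 7 neural genes (517 against 1513 RPM) and all 3 epidermal genes (386 against 1568 RPM) were lower. Of 6 genes written for pharyngeal arch and neural crest, only hand2, sox10 and foxd3 were matched. These were lower as well (45.0 against 127 RPM), and foxd3 had no read in GFP+ cells. The study itself listed genes of pharyngeal arch cells among those highly expressed in GFP+ cells. Hemoglobin genes took 6.59% of the GFP+ library and 0.0553% of the GFP- library. The part of these cell types in the differences of single phosphatase genes was not tested. In such bulk samples fewer cells of a type and less RNA per cell cannot be told apart.

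Phosphatase genes lay on both sides of the comparison, and 24 of the 40 tested were called in neither direction. Reads were summed over the transcripts of a gene, and the log2 ratio of GFP+ over GFP- was taken on RPM with 0.5 reads added, so a positive value means a higher level in GFP+ cells. Of the 57 members, 40 had at least 10 reads over both libraries and were tested, and the other 17 are given further below. The reads of each gene were set against the rest of its library in Fisher's exact test (two-sided), and p was adjusted by Benjamini-Hochberg over the 15252 genes tested. A call needed a log2 ratio beyond 1 or -1 together with an adjusted p below 0.001. Where a pair of values is given without its group, that of GFP+ cells comes first. By this rule 8 members were higher and 8 were lower in GFP+ cells. Over all genes tested 9.99% were called higher and 10.8% lower, which for 40 genes would be close to 4 in each direction. Leaving out the genes whose symbols name other proteins gave 7 higher and 7 lower. Summing the records of 1 phosphatase on 1 chromosome also gave 7 and 7, and these changes were not made together. The median log2 ratio of the 40 members was -0.21, beside -0.11 for all genes. For 10 members the 95% interval of the ratio (exact, Clopper-Pearson on the GFP+ share of the reads) lay wholly within 2-fold either way, against 32.7% of all genes. For 14 members it held a log2 ratio of 0, against 46.1% of all genes. When edgeR's exact test was run instead, with an assumed coefficient of biological variation of 0.4 and TMM scaling, 2 of the 16 called members, ptpn11b and radil2a, passed an adjusted p of 0.05.

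**Figure D1:**
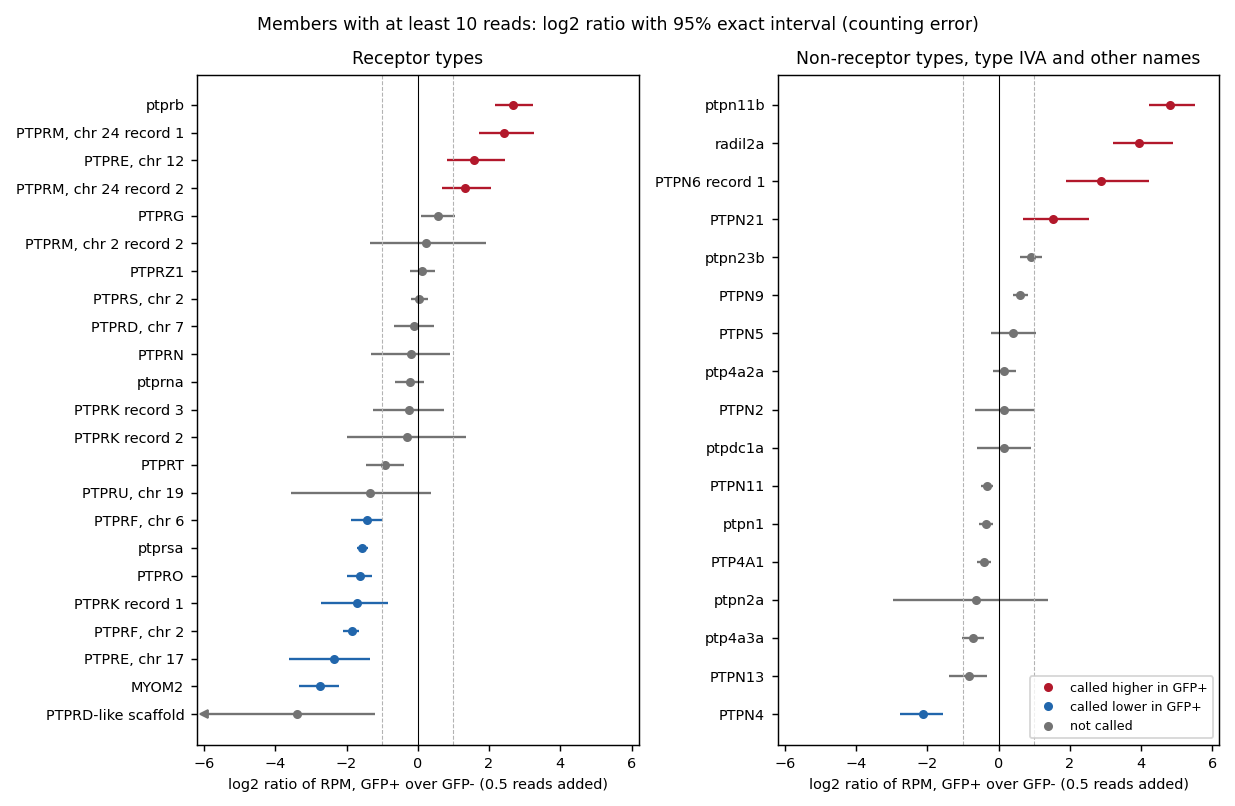
Log2 ratio of RPM, GFP+ over GFP- (x axis), of the 40 members with at least 10 reads, by class; points are the ratios, bars the 95% exact intervals, arrowheads an interval that runs beyond the axis, and dashed lines a log2 ratio of 1 and -1. The ratios run from -3.39 to 4.81. By name, 7 of the 8 members called lower and 23 of the 40 tested are receptor types, with MYOM2, whose symbol names another protein, included.

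**Figure D2:**
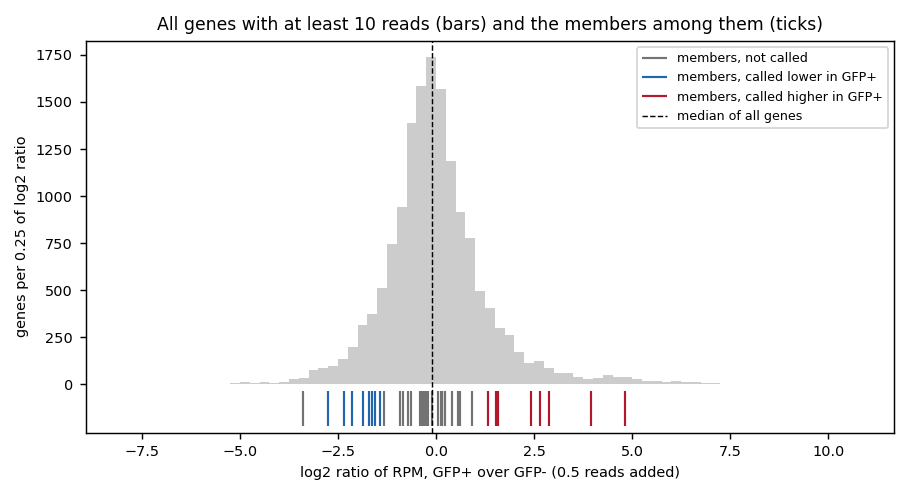
Number of genes per 0.25 of log2 ratio among the 15252 genes tested (bars), with the 40 tested members as ticks coloured by call. The median of all genes (dashed line) is -0.11, and the members called higher or lower lie in the flanks of the distribution.

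Calls were counted by class. Of 23 receptor types tested, 4 were called higher and 7 lower, with a median log2 ratio of -0.26. Of 12 non-receptor types, 4 were called higher and 1 lower, with a median of 0.28. Without MYOM2 and radil2a, whose symbols name other proteins, 4 of 22 receptor types were higher and 6 lower, and 3 of 11 non-receptor types were higher and 1 lower, with medians of -0.24 and 0.15. Neither type IVA genes (3 tested, median -0.41) nor genes with other names (2 tested) held a called member. Summed per kilobase of transcript as RPKM, receptor types reached 153 in GFP+ against 193 in GFP- cells, non-receptor types 172 and 106, and type IVA genes 93.6 and 115. Without the genes whose symbols name other proteins, receptor types reached 151 and 182, and non-receptor types 151 and 104. Of the non-receptor sums, ptpn11b alone held 47.3 and 1.65 RPKM. Of the receptor sums, record 2 of PTPRM on chromosome 24 held 40.4 and 15.99 RPKM, and PTPRO 10.8 and 34.1. The sums therefore do not describe either class as a whole. The difference between classes was not tested, since genes are not replicates.

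ptpn1, which encodes PTP1B, was among the most highly expressed members in both libraries and differed little between them. Its single transcript spans 29243750 to 29259257 on the forward strand of chromosome 8 (Zv9). GFP+ cells gave 387 reads over 67.8% of its length, and GFP- cells 455 over 66.6%. Its level was 25.6 RPKM in GFP+ against 32.6 RPKM in GFP- cells, the rank of 6 and 4 among the 57 members. The log2 ratio was -0.35 (95% interval -0.55 to -0.15), or 1.27-fold lower in GFP+ cells, which excludes a 2-fold difference between these libraries by counting error. It was not called, since neither this ratio nor the adjusted p in Fisher's exact test (0.00159) passed its threshold. The median of all genes, -0.11, lies outside this interval by a small margin. The copies of PTPN2, whose product TC-PTP is the closest relative of PTP1B and acts on Janus kinases, had far fewer reads. The PTPN2 gene on chromosome 19 had 29 and 24 reads (3.30 and 2.95 RPKM, log2 ratio 0.15, interval -0.67 to 1.00), and ptpn2a had 4 and 6 reads. Those of PTPN2 covered only 9.39% and 9.29% of its transcript, so its RPKM depends on the length it is divided by. Per kilobase covered, PTPN2 had 156 and 130 reads, beside 168 and 201 for ptpn1.

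The largest difference of any member was that of ptpn11b, a copy of the gene of SHP2, a phosphatase with SH2 domains that carries receptor tyrosine kinase signals to the RAS and ERK pathway. ptpn11b spans 24205304 to 24282739 of chromosome 23, forward strand. It had 681 reads in GFP+ cells, which covered 97.3% of the transcript, and 22 reads in GFP- cells, which covered 26.4%. Its level was 47.3 RPKM in GFP+ cells, the highest of all members there, and 1.65 RPKM in GFP- cells, rank 33. This was 28.0-fold higher in GFP+ cells (log2 ratio 4.81, interval 4.23 to 5.52, adjusted p = 9.41e-158 in Fisher's exact test and 0.000192 in edgeR's exact test). The other copy, PTPN11 on chromosome 10, had 570 and 662 reads, with 32.7 and 41.1 RPKM (log2 ratio -0.33, interval -0.49 to -0.17), and so stayed within 2-fold. The order of the copies was thereby reversed between the libraries. ptpn11b made up 59.1% of the RPKM of both copies in GFP+ cells and 3.87% in GFP- cells, where PTPN11 exceeded it 24.9-fold. Both together reached 80.0 RPKM in GFP+ against 42.8 RPKM in GFP- cells.

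SHP1, encoded by PTPN6 and known as a brake on receptor signals in blood cells, was also higher in GFP+ cells. Of its 2 gene records on chromosome 16, record 1 (34227715 to 34240643, reverse strand) had 67 reads in GFP+ against 8 in GFP- cells. These gave 14.9 and 1.92 RPKM, which was 7.34-fold higher (log2 ratio 2.88, interval 1.89 to 4.22, adjusted p = 5.25e-11 in Fisher's exact test). Record 2 had 1 and 0 reads. Of the matched leukocyte genes, coro1a (240 and 13 reads), lyz (381 and 7) and csf1ra (75 and 19) were called higher. In contrast, lcp1 (15 and 7) and cebpa (131 and 62) were not called. The cell type that gave the PTPN6 reads was not tested. ptprc, whose product CD45 is the defining phosphatase of leukocytes, had 1 read in GFP+ cells and none in GFP- cells. In edgeR's exact test with the assumed variation the adjusted p of PTPN6 was 0.0856.

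The remaining non-receptor types carry protein or lipid-binding domains. PTPN21, which has a FERM domain, was higher in GFP+ cells with 45 reads against 14 (4.03 and 1.36 RPKM, 2.90-fold, log2 ratio 1.54, interval 0.68 to 2.55). PTPN4 on chromosome 22, a FERM and PDZ domain phosphatase, was the single non-receptor type called lower. It had 31 reads in GFP+ against 127 in GFP- cells, with 1.505 and 6.67 RPKM, a level 4.38-fold lower in GFP+ cells (log2 ratio -2.13, interval -2.76 to -1.57). PTPN9, whose product MEG2 carries a Sec14 domain and sits on secretory vesicles, had 498 and 303 reads (15.8 and 10.4 RPKM). Its log2 ratio of 0.60 (interval 0.39 to 0.81) excluded both 0 and a 2-fold difference. PTPN13, the largest of the FERM and PDZ phosphatases, had 48 and 80 reads (log2 ratio -0.84, interval -1.40 to -0.32). Of these, 46 and 78 lay on a transcript whose protein match the rule does not name, over 6.61% and 7.92% of its length. The transcript that the rule names had 2 reads in each library. PTPN5, known in mammals as the striatum-enriched phosphatase, had 53 and 37 reads (0.40, interval -0.23 to 1.05). Neither PTPN13 nor PTPN5 was called.

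Among receptor types, ptprb rose most. It encodes the zebrafish counterpart of VE-PTP and spans 59499479 to 59598537 of chromosome 4, reverse strand. It had 249 reads in GFP+ against 36 in GFP- cells, with 9.24 and 1.45 RPKM. The level in GFP+ cells was 6.32-fold higher (log2 ratio 2.66, interval 2.17 to 3.22, adjusted p = 9.9e-36 in Fisher's exact test). In edgeR's exact test with the assumed variation the adjusted p was 0.0743. The reads covered 71.6% of the transcript in GFP+ cells and 8.09% in GFP- cells. Among the genes of proteins on which VE-PTP is known to act, kdrl had 2640 and 71 reads (log2 ratio 5.09), whereas tek and cdh5 had too few reads to be tested. Per length ptprb held rank 16 among all members in GFP+ cells, next to ptprsa at 9.28 RPKM.

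PTPRM, whose product binds itself between adjoining cells and is known in the endothelium of mammals, was higher in GFP+ cells in both of its records on chromosome 24. Record 1 (43245496 to 43351520) had 106 reads in GFP+ against 18 in GFP- cells, or 10.2 and 1.87 RPKM, which was 5.32-fold higher (log2 ratio 2.41, interval 1.72 to 3.25). Record 2 (43185672 to 43188091) is 396 bases long and had 71 and 26 reads, or 40.4 and 15.99 RPKM, which was 2.49-fold higher (log2 ratio 1.32, interval 0.67 to 2.04). Both lie on the reverse strand, and whether they are pieces of 1 gene was not resolved. Their reads together were 177 and 44 (log2 ratio 1.88, interval 1.41 to 2.41). On chromosome 2 a further record, with a clone-based symbol but a protein match to PTPRM, had 9 and 7 reads, with an interval of -1.34 to 1.91 that leaves its direction undecided.

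PTPRE, with a short outer part, is related to the Src activator PTPRA and is represented by 2 genes that went opposite ways. The PTPRE gene on chromosome 12 had 59 reads in GFP+ against 18 in GFP- cells (2.40 and 0.792 RPKM, 2.97-fold higher, log2 ratio 1.57, interval 0.82 to 2.45). The PTPRE gene on chromosome 17, whose protein match is ptpreb, had 9 and 44 reads (0.663 and 3.34 RPKM, 5.07-fold lower in GFP+ cells, log2 ratio -2.34, interval -3.62 to -1.35). These intervals do not overlap. The chromosome 12 copy made up 78.4% of the summed PTPRE level (RPKM) in GFP+ cells and 19.2% in GFP- cells. The reads of both copies together, 68 and 62, gave a log2 ratio of 0.02 (interval -0.50 to 0.54).

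The 7 receptor types called lower in GFP+ cells include MYOM2, whose symbol names another protein. Of the 7, 3 belong to the LAR group. These phosphatases have immunoglobulin and fibronectin domains and are known for roles in axon growth and synapses. PTPRF on chromosome 2, the gene of LAR, had 214 reads in GFP+ against 720 in GFP- cells, with 6.27 and 22.8 RPKM, a level 3.63-fold lower in GFP+ cells (log2 ratio -1.86, interval -2.09 to -1.64). The PTPRF gene on chromosome 6 had 64 and 159 reads, with 2.07 and 5.55 RPKM (log2 ratio -1.42, interval -1.87 to -0.999). ptprsa had the most reads of any member in GFP- cells, 1306 against 478 in GFP+ cells, with 27.4 and 9.28 RPKM (2.95-fold lower, log2 ratio -1.56, interval -1.72 to -1.41). The other gene named for receptor sigma, PTPRS on chromosome 2, had 305 and 274 reads (12.7 and 12.3 RPKM). Its log2 ratio was 0.04 (interval -0.20 to 0.28), within 2-fold, and its interval does not overlap that of ptprsa. Of the third LAR type, the PTPRD gene on chromosome 7 had 55 reads in each library (log2 ratio -0.11, interval -0.68 to 0.45). ptprdb had 5 reads in GFP+ cells and none in GFP- cells. A PTPRD-like record on an unplaced scaffold had 1 and 14 reads (log2 ratio -3.39, interval -9.32 to -1.20). Its adjusted p of 0.00102 in Fisher's exact test was just outside the threshold, and its protein match is the same record as that of MYOM2.

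PTPRO, a receptor type with fibronectin domains known from kidney podocytes and neurons, had 89 reads in GFP+ against 256 in GFP- cells. Its level summed over both transcripts was 10.8 and 34.1 RPKM, the highest sum of any receptor type in GFP- cells. By reads it was 3.10-fold lower in GFP+ cells (log2 ratio -1.63, interval -2.002 to -1.28). Both of its transcripts moved alike, with 48 and 143 reads on the shorter (log2 ratio -1.68) and 41 and 113 on the longer (-1.56). Only the longer has a protein match that the rule names. That transcript alone had 2.38 and 7.10 RPKM, below ptprsa at 27.4 RPKM in GFP- cells, so the rank of PTPRO rests on the shorter. PTPRK, an adhesion receptor of the same subfamily as PTPRM, has 3 records on chromosome 20. Record 1 had 14 and 43 reads (1.08 and 3.26 RPKM) and was called lower (log2 ratio -1.70, interval -2.72 to -0.83). Records 2 and 3 had 7 and 8 and 18 and 20 reads, with log2 ratios of -0.29 and -0.26 and intervals that held 0. Their sum, 39 and 71 reads, gave -0.97 (interval -1.58 to -0.39), which is not past the threshold, so the call of record 1 is lost when the records are taken as 1 gene. PTPRT, of the same subfamily, had 48 and 84 reads (log2 ratio -0.91, interval -1.46 to -0.39, adjusted p = 0.00101 in Fisher's exact test) and was not called. PTPRU on chromosome 19 had 4 and 10 reads.

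Several further receptor types were not called. PTPRZ1, which has a carbonic anhydrase-like outer domain and is known in glia, had 156 and 132 reads (8.05 and 7.37 RPKM, log2 ratio 0.13, interval -0.22 to 0.47). PTPRG, of the same type, had 101 and 63 reads (2.91 and 1.96 RPKM, log2 ratio 0.56, interval 0.10 to 1.05). The IA-2 proteins, which lie in secretory granules and lack phosphatase activity in mammals, were represented by ptprna with 99 and 107 reads (log2 ratio -0.22, interval -0.63 to 0.18) and PTPRN with 15 and 16 (log2 ratio -0.20, interval -1.33 to 0.90).

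**Figure D3:**
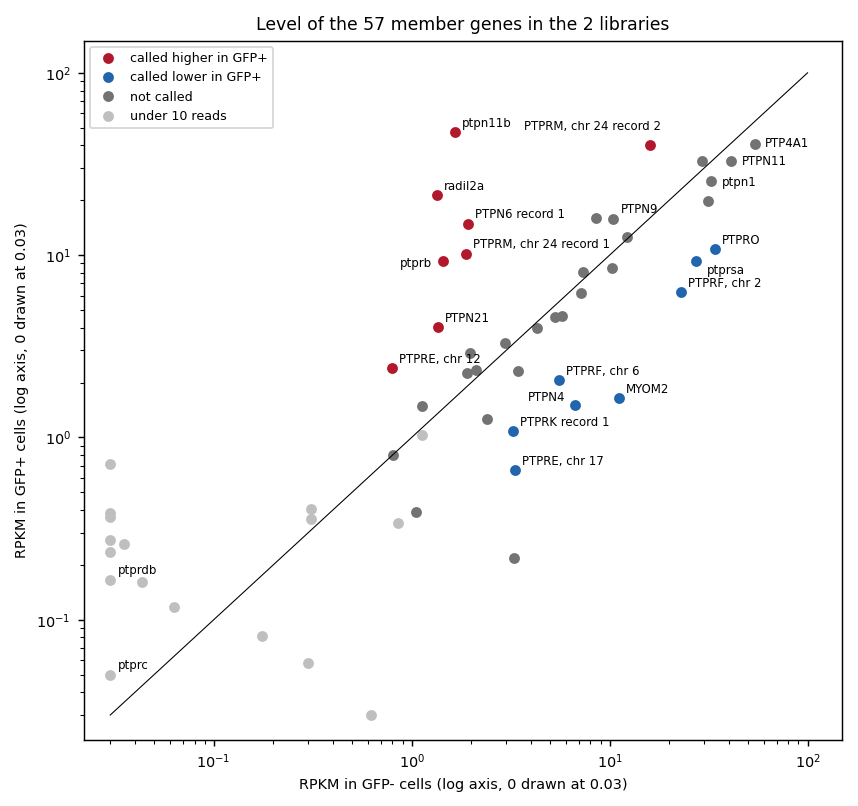
Level of the 57 members in RPKM, GFP- cells on the x axis and GFP+ cells on the y axis (both log axes, values of 0 drawn at 0.03), coloured by call, with the line of equal level. ptpn11b (47.3 against 1.65 RPKM) lies farthest above the line among genes with at least 10 reads, while ptpn1 (25.6 against 32.6) and PTP4A1 (40.8 against 54.0) lie close to it.

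The 3 type IVA members, small prenylated enzymes also called PRL, were among the highest members in both libraries and none was called. The rule left out ptp4a3b, which was called lower (log2 ratio -1.58), and ptp4a2b, which was not called (0.43). PTP4A1 had 357 and 438 reads, with 40.8 and 54.0 RPKM, the highest member in GFP- cells (log2 ratio -0.41, interval -0.61 to -0.20). ptp4a2a had 173 and 143 reads, with 32.9 and 29.4 RPKM (log2 ratio 0.16, interval -0.17 to 0.49). ptp4a3a had 152 and 231 reads, with 19.9 and 31.4 RPKM (log2 ratio -0.72, interval -1.02 to -0.42). Of the other names, ptpn23b, a gene of the HD-PTP family that takes part in endosomal sorting, had 284 and 140 reads (16.03 and 8.55 RPKM). Its log2 ratio of 0.90 (interval 0.61 to 1.21) lay just under the threshold, and passed it under TMM scaling, under median-of-ratios size factors and without hemoglobin reads in the totals. Classes follow the name in the protein match, so the counts, medians and sums of non-receptor types leave ptpn23b out. ptpdc1a had 35 and 29 reads (log2 ratio 0.15).

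**Figure D4:**
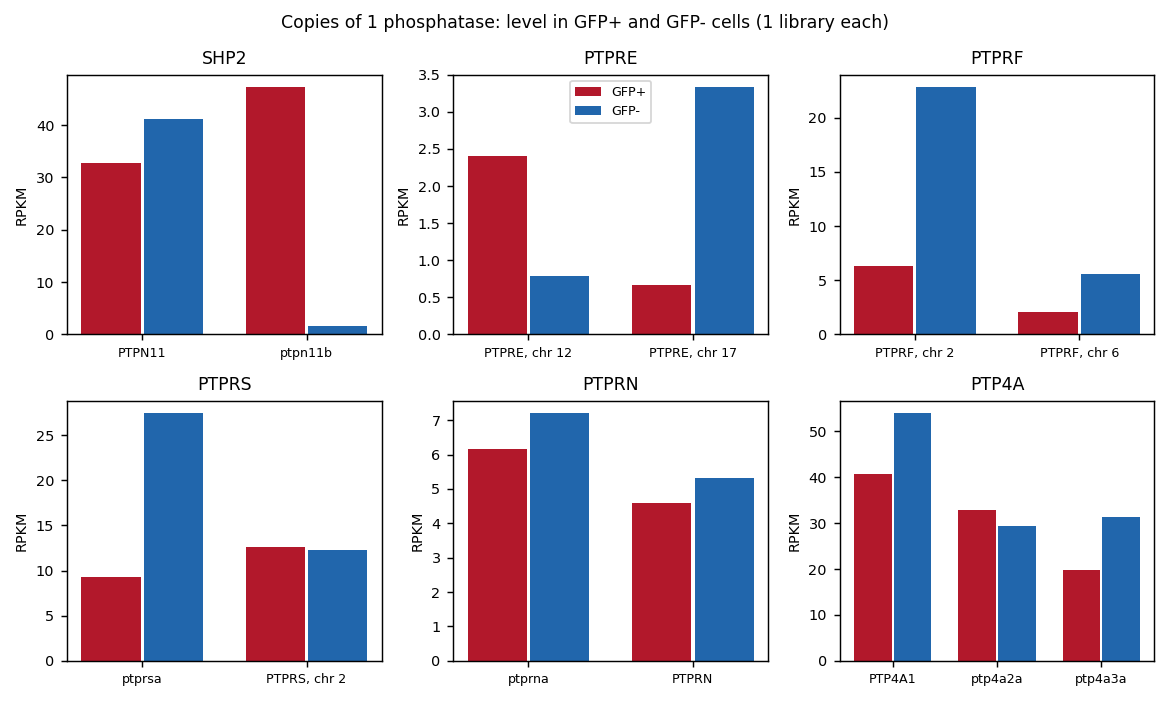
Level in RPKM (y axis, from 0, scale differs by panel) in GFP+ and GFP- cells, 1 library each, so bars have no error. The 6 panels show copies of 1 phosphatase, except that of PTP4A, which shows related genes. The copies of SHP2 and of PTPRE change order between the libraries, and both PTPRF genes are lower in GFP+ cells. The genes of PTPRN, PTPRS on chromosome 2 and the PTP4A members shown were not called.

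Among the 4 genes whose symbol names a protein that is not a tyrosine phosphatase, radil2a and MYOM2 were called. radil2a, matched to a type 13-like phosphatase, bears the symbol of a Radil protein, an effector of the Rap GTPase. It had 241 reads in GFP+ cells over 97.5% of the transcript and 14 in GFP- cells (21.3 and 1.34 RPKM, 15.4-fold higher, log2 ratio 3.94, interval 3.22 to 4.88). MYOM2, matched to a receptor D-like phosphatase, bears the symbol of myomesin, a protein of the muscle sarcomere. It had 33 and 207 reads (1.64 and 11.2 RPKM, 6.70-fold lower in GFP+ cells, log2 ratio -2.74, interval -3.34 to -2.23). The muscle genes myod1 with 38 and 310 reads, myog with 12 and 154 and actc1b with 2425 and 7904 were lower as well. FRMPD2 had 1 and 2 reads, and HACD2, an enzyme of very long-chain fatty acid synthesis, had 2 and 5. Without these genes 7 members were called higher and 7 lower, and the median of non-receptor types was 0.15.

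Fewer than 10 reads over both libraries were counted for 17 members, 38 reads in GFP+ against 22 in GFP- cells in all. Of these, 11 were receptor types, 4 non-receptor types and 2 had other names. They included the genes of CD148, ptprja with 4 reads in GFP+ against 1 in GFP- cells and ptprjb.1 with 1 and 0, so that a difference of CD148 was not detectable at this depth. ptprq, a phosphatase of inner ear hair cells, had 8 reads and 1, PTPN22 of lymphoid cells had 5 and 4, PTPN3 had 2 and 1, and PTPMT1, a mitochondrial lipid phosphatase, had 2 and 1. PTPRN2 had 1 and 2 reads, the PTPRU record on chromosome 16 had 2 in each library, and a PTPRF-like record on chromosome 13 had 0 and 3. The PTPRD-like record on chromosome 7, a PTPRM record on chromosome 2 and an unplaced PTPRM record had 1 read in GFP+ cells and none in GFP- cells. The others, ptprc, ptprdb, FRMPD2, HACD2 and record 2 of PTPN6, are described above.

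The rule left out 11 genes whose symbol begins with ptp but whose protein match bears another name, and 10 of them had enough reads. The ptpn9b gene was called higher, with 242 and 95 reads (21.3 and 9.03 RPKM, log2 ratio 1.23, interval 0.89 to 1.59), beside 0.60 for PTPN9. The ptp4a3b gene was called lower, with 63 and 175 reads (5.19 and 14.5 RPKM, log2 ratio -1.58, interval -2.03 to -1.16), beside -0.72 for ptp4a3a. PTPRA, which activates Src kinases, had 352 and 426 reads (log2 ratio -0.39, interval -0.60 to -0.18). A second PTPN4 gene had 183 and 279 reads (log2 ratio -0.72), less far from 0 than the PTPN4 gene on chromosome 22. Further genes of PTPRG (86 and 52 reads, log2 ratio 0.61) and PTPRZ1 (60 and 42, 0.40) were not called. PTPN23 had 188 and 131 reads (log2 ratio 0.41) and was not called, beside 0.90 for ptpn23b.

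Kinases, junction proteins and adaptors that these phosphatases are known to act on or with were taken as a list of 48 genes. Of the list, 32 were matched and 25 had enough reads. Of the 25 tested, 9 were called higher in GFP+ cells and 4 lower, with a median log2 ratio of 0.48, beside 9.99% and 10.8% over all genes. The list shares kdrl, tie1, tek and cdh5 with the endothelial markers and csf1ra with the leukocyte list. It was chosen with earlier results of these data known, so these counts describe the genes chosen and test nothing. Among 7 tested receptors 6 were higher, the vascular kdrl, kdr (472 and 3 reads, log2 ratio 6.96), flt1 (557 and 5, 6.55) and tie1 (950 and 7, 6.87), beside pdgfrb (72 and 14, 2.21) and csf1ra (75 and 19, 1.84), a receptor of macrophages and pigment cells. Of the Src family, src (65 and 255 reads, log2 ratio -2.08) and yes1 (565 and 1105, -1.08) were lower, whereas lyn (119 and 66, 0.73), fynb (44 and 29, 0.48) and csk (329 and 305, -0.00) were not called. Of proteins known to work with SHP2, gab2 had 59 and 7 reads (log2 ratio 2.87, called higher), gab1 had 14 and 7, and grb2b had 190 and 178 (-0.02). jak2a (64 and 5 reads, log2 ratio 3.44) and stat3 (58 and 13, 2.002), in a pathway that PTP1B, TC-PTP and SHP1 are known to restrain, were higher, whereas jak1 (417 and 214, 0.85) and tyk2 (6 and 4, 0.42) were not called. The remaining lower genes were ctnnd1, which encodes p120-catenin of cell junctions (506 and 1021 reads, log2 ratio -1.13), and pxna, a paxillin gene (25 and 61, -1.38).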

How the data were processed

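RNA of GFP+ and GFP- cells was prepared with the Illumina TruSeq kit per the labels, as 1 library per group. For each Ensembl transcript of Zv9 with a read, the authors deposited the count of uniquely mapped reads, the percent of its length that they covered, and RPKM. The aligner and counter are not given in the sources used here. RPKM recomputed from counts, lengths and totals equalled the deposited RPKM. Counts and RPKM were summed by gene. Reads shared by near-identical copies are lost when only unique matches count, and overlapping transcripts can split reads, which was not tested. Fisher's exact test was applied where both libraries together held at least 10 reads, and the procedure was tested on simulated data.

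The members and lists were chosen with earlier results of these data known. The genes named are ptpn1, the members for VE-PTP, CD148, SHP1, SHP2 and CD45, every called member, the extremes of each class in RPKM and ratio, and pairs of copies. Other members were added to account for all 57. Symbols came from a table of gene IDs (16497 of 22017 matched) and, for ptpreb and ptpn23b, from RefSeq protein accessions. Results were recomputed under 9 other settings of test, minimum, scaling, transcript and reads added, and under 2 more chosen after seeing the data. R 4.3.3 ran edgeR 4.0.16 and DESeq2 1.42.0, the latter for size factors, and SciPy 1.17.1 under Python 3.11.15 ran the tests.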

Additional observations from a re-analysis of the deposited data

How the results depend on the processing

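No paired analysis was possible because only 1 library stands on each side, and no replicate could be left out. Without a test, 2469 genes were higher and 2686 lower, against 1524 and 1651, and the members gained the PTPRD-like scaffold record and PTPRU on chromosome 19. With edgeR's exact test at the assumed variation of 0.4, 341 genes were higher and 94 lower, of members 2 and 0, and of kinases, junction proteins and adaptors 5 and 0. That setting changes the test, the scaling and the adjusted p threshold (0.05 for 0.001) together, and the part of each was not tested. No called member changed sign under any setting in which it was tested, and 14 of the 16 calls were lost in edgeR's test. Under TMM scaling, size factors and totals without hemoglobin reads ptpn23b was also called. TMM moved the median of all genes to -0.0014, of members to -0.10, of receptor types to -0.15 and of non-receptor types to 0.39, and size factors (equal for both libraries) gave 0.00, -0.10, -0.15 and 0.39, so every log2 ratio is best read against the median of all genes. With no minimum the medians were 0.13 for members and -0.11 for receptor types, with at least 20 reads -0.11 for members and 0.40 for non-receptor types, and with the most-read transcript 0.40 for non-receptor types. Of the settings chosen after seeing the data, leaving out the 4 genes with another symbol gave 0.15 for non-receptor types, and summing records on a chromosome gave -0.57 for receptor types, with 7 members higher and 7 lower and the call of PTPRK lost. The sign of the members' median thus depends on the minimum. Differences of members with few reads were not detectable at this depth.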

Other observations

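The deposited coverage shows how the reads of a member were spread, since 1 read alone covered 49 bases of a transcript. PTPN11, with 662 reads in GFP- cells, was covered over 95.7% of its length. PTPRF on chromosome 2 had 720 reads there on 27.5% of its length, or 341 reads per kilobase covered, and its 214 reads in GFP+ cells lay on 25.8%. PTPRO was similar, with 20.4% and 21.4% of its shorter transcript covered in GFP+ and GFP- cells and 518 reads per covered kilobase in GFP- cells. PTP4A1 was covered over 36.8% and 36.04%. RPKM divides by the whole length, so the levels of these genes relative to evenly covered ones depend on it. Their ratios between the libraries do not depend on that length. Whether reads on a part of a transcript stand for the whole gene was not tested. The 36 reads of ptprb in GFP- cells lay on 491 bases, 73.3 reads per covered kilobase, against 57.3 in GFP+ cells, where there were 249 reads. The 22 reads of ptpn11b in GFP- cells, in contrast, lay on 856 bases (25.7 per covered kilobase). Where on the transcript these reads lie is not given in the files.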
